A study of Homo sapiens with 12 samples.

Results

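The cytokines IL11 and LIF, the IL6 receptor chains IL6R and IL6ST, the transcription factor STAT3, the feedback inhibitors SOCS2, SOCS3 and CISH and the kinase PIM1 were followed through 12 RNA-seq libraries of HepG2 and Ls174 cells. These 9 genes, of the 57736 genes in the count files, were chosen by name from a set whose responses to the seaweed extract and differences between the cell lines had been seen in these same libraries. Their levels, fold changes and line differences are therefore given as a description, without a p-value. HepG2 is a human liver cancer line and Ls174 a human intestinal cancer line, both labelled WT. Each was left untreated or was cultured for 24 h with 0.7 mg/ml of the extract of the red seaweed Hypnea musciformis (HME). There were 3 libraries in each of the 4 groups. The dose is that of the labels, and the study's methods give a slightly different concentration. The 2 lines are each 1 cell line and were maintained in DMEM with fetal bovine serum, while the serum during the treatment of these libraries is not given in the sources used here. The labels call the controls "no treatment" and name no solvent control. The libraries were called biological replicates by the study, but no label ties them to separate cultures, so the tests measure the spread between these libraries.

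IL11 and LIF are secreted cytokines of the IL6 family. Each binds its own receptor chain, which then pairs with the shared chain gp130, the product of IL6ST, and the Janus kinases held by the receptors phosphorylate STAT3. Activated STAT3 enters the nucleus and switches on genes that include SOCS3 and PIM1, and the SOCS proteins and CISH then damp the receptor signal. In liver cells this route is best known for driving the acute-phase proteins in response to IL6.

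The libraries held between 1790841 and 3656662 counts. Each count stands for a read assigned to a gene's 3′ region, because the libraries were made with a 3′ mRNA kit, and levels are given as CPM, counts in 1000000 counts of the library after scaling with the trimmed mean of M values (TMM). The 5 liver markers, led by ALB and AFP, summed to 8827 to 15646 CPM in the 6 HepG2 libraries. In Ls174 they summed to 88.6 CPM in control 3, 38.4 CPM in HME 1 and 9.47 CPM in HME 3, and to at most 0.309 CPM in the other 3 libraries. Of the 6 colon markers, CDX2, VIL1 and TFF3 were present in every Ls174 library, whereas KRT20 was at or near 0, MUC2 did not exceed 2.16 CPM, and CEACAM5 was at 0 in control 1 and at most 6.01 CPM in the others. VIL1 did not mark the colon line, at 42.0 to 78.7 CPM in Ls174 and 52.6 to 187 CPM in HepG2. Between the untreated lines edgeR called it as lower in Ls174, by a log2 difference of -1.12. Untreated HepG2 library 2 differed from the other 2 controls of its line by a chi-square of 54.1 and 49.1 per degree of freedom, where those 2 differed by 13.6, and untreated Ls174 library 1 differed by 34.5 and 37.0 where the other 2 differed by 5.68. Log2 fold changes of HME against control are printed for some genes. Where 1 of these 2 libraries changed the call or moved the value by over 1.5 times, the value without it follows. For genes given by name only, the changed calls are named without a value. In bulk libraries, fewer cells with a transcript and less transcript per cell cannot be told apart.

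Promoter and 3′-end sequences are shown because they bear on how these genes are switched on and how their messages are counted. Promoters were taken from RefSeq (GRCh38.p14, 250 bases before to 50 after the start site), where 7 of the 9 genes had an entry and LIF and SOCS2 had none. They were searched on both strands for the STAT motif TTCNNNGAA, its 2-base-spaced form TTCNNGAA, the AP-1 motif TGANTCA and the CRE motif TGACGTCA. None of these motifs contains another, and each reads alike on both strands. Of the 35116 promoters in the table, 7.66% held TTCNNNGAA, 7.74% held TTCNNGAA, 7.71% held TGANTCA and 1.85% held TGACGTCA. The promoter of IL11, at chr19:55370414-55370713 on the minus strand, held 1 AP-1 match that began 96 bases before the start site and no STAT match. The promoter of CISH, at chr3:50611725-50612024 on the minus strand, held 4 matches to TTCNNNGAA, which began 241, 230, 129 and 112 bases before the start site. One of the SOCS3 entries, at chr17:78360876-78361175 on the minus strand, held 1 match to TTCNNGAA, TTCCGGAA, 215 bases before the start site. The IL11, CISH and SOCS3 promoters are shown with the matched letters in capitals.
IL11: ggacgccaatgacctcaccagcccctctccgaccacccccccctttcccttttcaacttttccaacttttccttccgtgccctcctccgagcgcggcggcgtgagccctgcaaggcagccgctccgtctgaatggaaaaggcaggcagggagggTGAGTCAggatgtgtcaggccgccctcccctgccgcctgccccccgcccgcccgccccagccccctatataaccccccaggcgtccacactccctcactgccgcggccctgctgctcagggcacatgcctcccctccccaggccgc
CISH: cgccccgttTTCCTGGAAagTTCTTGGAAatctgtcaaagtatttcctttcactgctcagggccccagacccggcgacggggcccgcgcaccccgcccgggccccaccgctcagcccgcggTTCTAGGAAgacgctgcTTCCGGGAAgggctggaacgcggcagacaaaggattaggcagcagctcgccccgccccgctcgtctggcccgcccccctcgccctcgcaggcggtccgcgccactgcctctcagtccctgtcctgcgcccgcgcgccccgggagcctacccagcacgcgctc
SOCS3: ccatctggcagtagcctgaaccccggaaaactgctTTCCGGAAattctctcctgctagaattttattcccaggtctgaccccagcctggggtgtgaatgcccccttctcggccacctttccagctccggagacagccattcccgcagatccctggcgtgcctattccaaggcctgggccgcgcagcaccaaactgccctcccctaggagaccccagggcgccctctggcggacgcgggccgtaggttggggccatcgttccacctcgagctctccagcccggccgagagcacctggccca
The other SOCS3 entry and the IL6ST and PIM1 promoters held none of the 4 motifs in these windows. IL6R held 1 match to TTCNNGAA and 1 AP-1 match, and STAT3 held 1 match to TTCNNGAA. The absence of a match says only that these letters are not in the window.

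The counted 3′ regions were read from GRCh37, the build of the files. A single region held between 96.9% and 100% of the counts of each gene, and between 85.1% and 97.2% of its bases were annotated as untranslated sequence. The rest lay outside the annotated untranslated and coding sequence of the gene. IL11 was counted over chr19:55875560-55877374, LIF over chr22:30636239-30639802, SOCS3 over chr17:76352667-76354498 and PIM1 over chr6:37141868-37143399. The regions of LIF, IL6R and IL6ST overlap a gene on the other strand (RP1-102K2.6, SHE and CTD-2031P19.5), and whether counting used strand is not given in the sources used here. AU-rich elements, of which the nonamer TTATTTATT is the core, are known to mark short-lived messages of cytokines and early response genes. The nonamer occurred 6 times in the IL11 region, 3 times in PIM1, 2 times each in LIF and CISH and 1 time in SOCS2, and was absent from IL6R, IL6ST, STAT3 and SOCS3. Among regions within 20% of the same length, of genes with at least 10 counts in at least 3 libraries, at least 1 nonamer was found in 8.34% of 1870 for IL11, 7.15% of 1873 for PIM1, 6.56% of 1783 for CISH, 16.4% of 1364 for LIF and 17.1% of 1318 for SOCS2. The densest stretch of IL11, PIM1 and CISH and the 2 stretches of LIF are shown as RNA-sense DNA with the nonamers, overlapping ones joined, in capitals.
IL11, chr19:55877311-55877339: cagatcTTATTTATTTATTTATTtcagta
PIM1, chr6:37142765-37142793: atgtatTTATTTATTTATTTATTtggttc
CISH, chr3:50644523-50644551: tacactatTTATTTATTTATTctccttgg
LIF, chr22:30636947-30636975: ctccgggcccTTATTTATTatttaaacat
LIF, chr22:30636524-30636552: cagattatttTTATTTATTcaatgtcata
IL11 and PIM1 each carried 3 overlapping copies within 17 bases. These letters describe the regions, and message stability was not measured.

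Both ligands were higher in treated than in untreated HepG2 cells and stayed low in Ls174 cells. IL11 (ENSG00000095752) was at 2.14, 4.33 and 2.41 CPM in untreated HepG2 cells and at 87.7, 87.8 and 88.4 CPM after HME, from 21 and 621 counts. The groups did not overlap, and the 3 treated libraries lay within 1 CPM of each other. The summed level was 32.8 times that of the controls (95% exact interval 21.3 to 53.4, counting error only), and the fitted log2 fold change was 4.96 ± 0.40 (SE). In Ls174 cells IL11 was at 5.87, 0.617 and 0.509 CPM without and at 1.09, 0 and 0.327 CPM with HME, from 16 and 4 counts. Those levels overlapped, 12 of the 16 control counts came from library 1, and the gene did not pass the count filter in this line.

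LIF (ENSG00000128342), which signals through LIFR and gp130, was at 0.802, 0.619 and 1.2 CPM in untreated HepG2 cells. After HME it was at 8.26, 10.9 and 17.9 CPM, so that every treated library lay above every control. Its log2 fold change was 3.73 ± 0.57, and the summed level was 13.0 times that of the controls (6.04 to 33.4), whose 3 libraries held 7 LIF counts in all. In Ls174 cells LIF was at 0.978, 2.16 and 1.53 CPM without and at 0.724, 1.06 and 1.31 CPM with HME. The Ls174 groups overlapped, with 15 and 9 counts, and LIF was not tested there. Without HepG2 HME library 3, the highest, the log2 fold change of LIF was 3.39 and its call was lost.

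**Figure D1:**
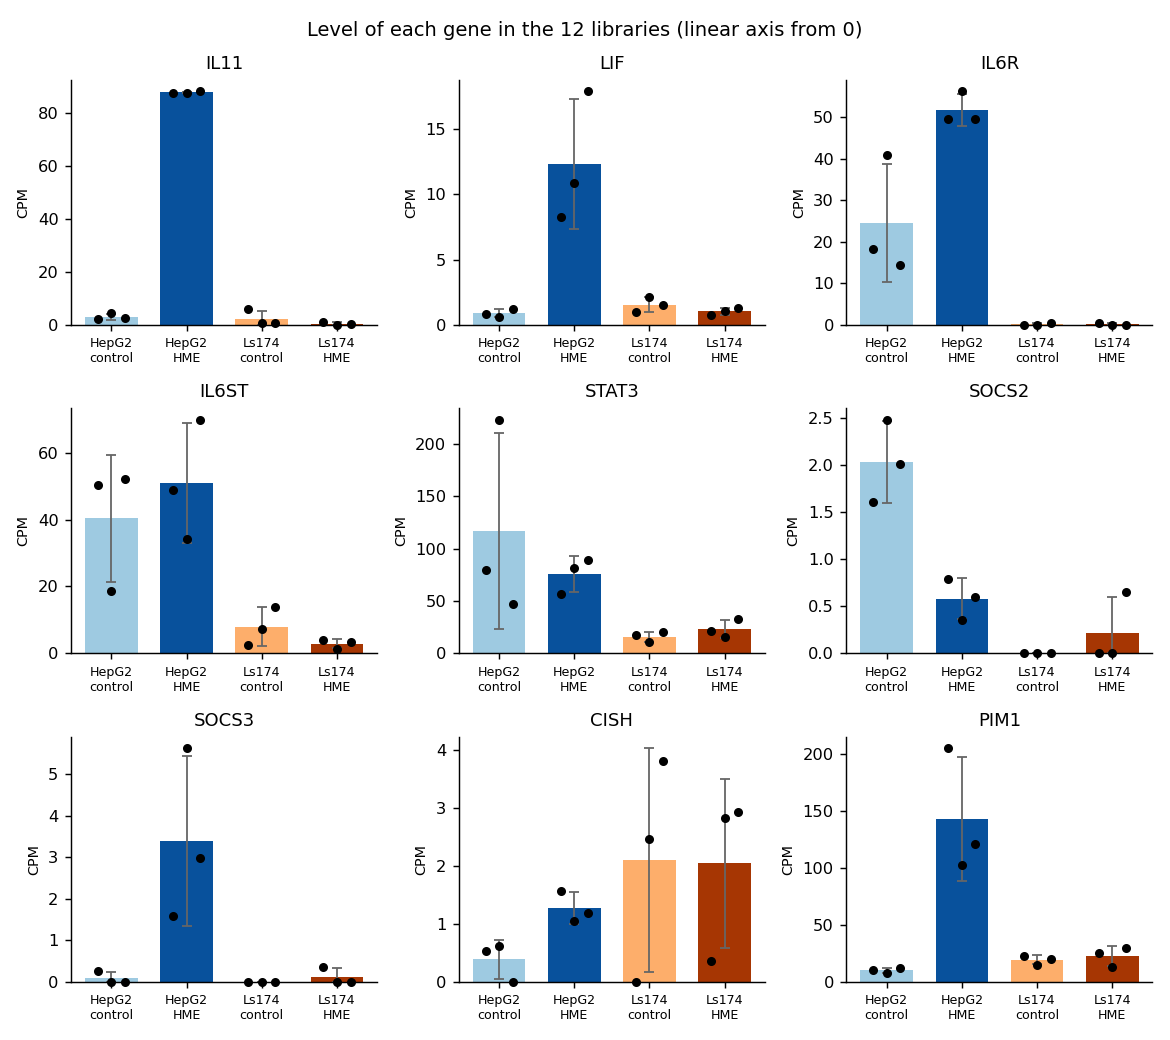
Level of the 9 genes (CPM, linear axes from 0) in the 12 libraries. Points are libraries, bars the mean and error lines 1 SD (n = 3 libraries a group), and the treated HepG2 bars of IL11, LIF and PIM1 stand above the other 3 groups.

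Both receptor chains had higher levels in HepG2 than in Ls174 cells. IL6R, which binds IL6, was at 18.2, 40.9 and 14.5 CPM in untreated and at 49.5, 56.2 and 49.6 CPM in treated HepG2 cells. The treated libraries lay above the controls, of which library 2 was the highest. The log2 fold change was 1.09 ± 0.43 and did not pass the adjusted threshold, and without control library 2 it was 1.72 and did. In Ls174 cells IL6R had 2 counts in control 3 and 1 count in HME 1, the 2 Ls174 libraries with the most liver marker signal, and none in the other 4.

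IL6ST, the shared signalling chain of the family, was at 50.2, 18.6 and 52.2 CPM in untreated and at 48.8, 34.1 and 69.8 CPM in treated HepG2 cells. These groups overlapped, and the log2 fold change was 0.35 ± 0.42, or 0.049 without control library 2, the lowest. In Ls174 cells IL6ST was at 2.44, 7.40 and 14.0 CPM without and at 3.98, 1.41 and 3.27 CPM with HME. Its log2 fold change of -1.49 ± 0.67 there did not pass the threshold, and the groups overlapped through control library 1, the lowest control. Without that library the value was -1.88 and passed.

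STAT3, the transcription factor that the family activates, was at 79.6, 223 and 47.4 CPM in untreated and at 56.6, 81.8 and 89.0 CPM in treated HepG2 cells. A single library, control 2, was more than 2 times as high as any other, and the sign of the difference rested on it. The log2 fold change was -0.65 ± 0.55 with it and 0.32 without it. In Ls174 cells STAT3 was at 17.1, 10.5 and 19.8 CPM without and at 21.4, 15.6 and 32.7 CPM with HME, overlapping groups with a log2 fold change of 0.55 ± 0.37. These are transcript levels, and STAT3 phosphorylation was not measured here.

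The feedback inhibitors were near the limit of these libraries, and none of the 3 passed the count filter in either line. SOCS3, which binds gp130 and blocks the Janus kinases, had 1, 0 and 0 counts in untreated and 4, 16 and 5 counts in treated HepG2 cells, or 0.267, 0 and 0 against 1.57, 5.62 and 2.99 CPM. All 3 treated libraries lay above the controls, although HME library 2 held 16 of the 25 counts. The ratio of the summed levels was 27.8, with a counting interval of 4.54 to 1140 that is wide because the controls held 1 count. Without HME library 2, an alternative chosen after seeing the data, the ratio was 16.7 (2.32 to 734), from 9 counts and 1. That library also held most of the mesenchymal marker signal described at the end, and its part in the SOCS3 value was not tested. In Ls174 cells SOCS3 had no count in the controls, which allows up to 0.325 CPM over the group, and 1 count after HME.

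SOCS2, best known as a brake on growth hormone signalling, went the other way in HepG2. It was at 1.60, 2.48 and 2.01 CPM in untreated and at 0.786, 0.351 and 0.597 CPM in treated cells, from 15 and 4 counts, and the groups did not overlap. The control level was 3.38 times the treated level (1.08 to 14.0). In Ls174 cells SOCS2 had no count without and 2 counts with HME.

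CISH, a related inhibitor that docks on cytokine receptors, had 3 counts over the untreated and 9 over the treated HepG2 libraries, at 0.534, 0.619 and 0 against 1.57, 1.05 and 1.19 CPM. The groups did not overlap, and the ratio of 3.33 had a counting interval from 0.831 to 19.1 that includes 1. In Ls174 cells CISH was at 0, 2.47 and 3.82 CPM without and at 0.362, 2.83 and 2.94 CPM with HME, which overlapped almost entirely.

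PIM1 is a serine/threonine kinase that promotes survival and is a textbook STAT3 target. It was at 10.4, 7.43 and 12 CPM in untreated and at 205, 103 and 121 CPM in treated HepG2 cells. Even the lowest treated library lay far above the highest control. The log2 fold change was 3.84 ± 0.40 and the summed level was 13.9 times that of the controls (11.1 to 17.7), from 81 and 1017 counts. In Ls174 cells PIM1 was at 23.0, 15.1 and 19.6 CPM without and at 25.0, 12.7 and 29.7 CPM with HME. These overlapped, with a log2 fold change of 0.23 ± 0.36 that turned to -0.022 without HME library 3 and was 0.38 without control library 1.

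Of the 9 genes, 6 passed the count filter in HepG2 and 3 of these, IL11, LIF and PIM1, were called at an adjusted p below 0.05, all higher with HME. Over all 11343 genes tested in HepG2, 3.31% were called and 2.77% were called as higher, and since the same contrast chose the genes, nothing is read from this. At the looser thresholds of the study's methods, an unadjusted p below 0.05 with a log2 fold change beyond 0.58, IL6R was added and 4 of 6 were higher, where 22.2% of all genes tested passed in either direction and 11.3% as higher. In Ls174, 3 of the 9 genes (IL6ST, STAT3 and PIM1) passed the filter and edgeR called 0, where 1.18% of 11319 genes tested were called. None of these 3 had an unadjusted p below 0.05 in Ls174, where 12% of genes passed the looser thresholds, and DESeq2 called 0 of them.

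**Figure D2:**
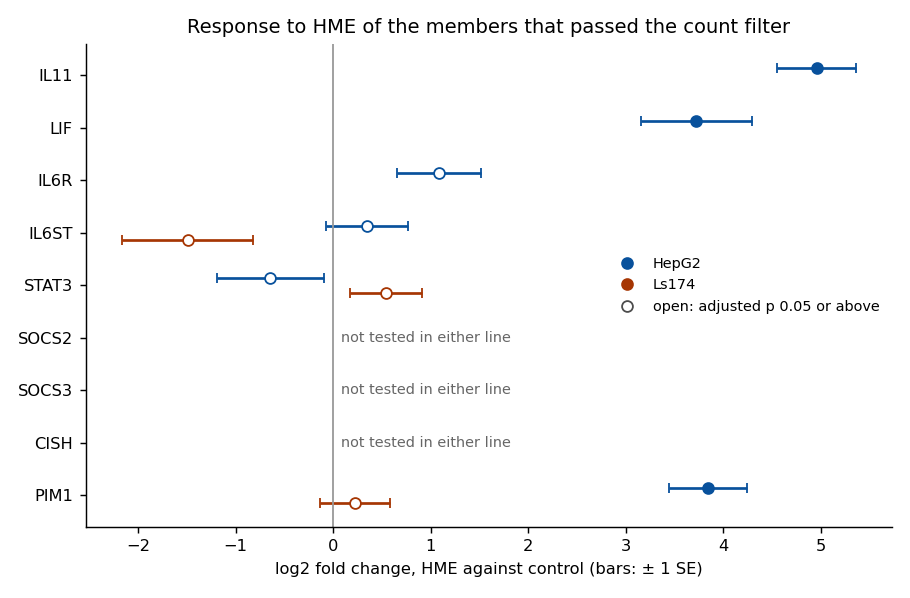
Fitted log2 fold change of HME against control with its SE, for the genes that passed the count filter in HepG2 (blue) and Ls174 (brown). Filled points are called at an adjusted p below 0.05, which holds for IL11, LIF and PIM1 in HepG2 and for no gene in Ls174.

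Whether the response differed between the lines was fitted over all 12 libraries as the Ls174 log2 fold change minus that of HepG2. It was -6.92 ± 1.17 for IL11, -4.31 ± 0.85 for LIF and -3.59 ± 0.53 for PIM1, so 3 of the 6 genes tested were called, all lower in Ls174. Over 13040 genes, 0.644% were called and 0.613% were called as lower. The value of IL11 rests on 4 counts in treated Ls174 cells, and its call was lost without Ls174 HME library 2 or 3, with values of -6.40 and -6.73. The call of LIF was lost when any 1 library other than HepG2 control 2 or Ls174 control 1 was left out, with values of -4.58 to -3.97. These contrasts belong to those the genes were chosen on, and nothing is read from the calls. IL6ST (-1.82 ± 0.79), IL6R (-1.78 ± 1.65) and STAT3 (1.17 ± 0.69) were not called. With 1 library left out, STAT3 was at 0.32 to 1.54 and IL6ST at -2.19 to -1.14. IL6R was at 0.67 without Ls174 control library 3, so its sign rested on that library.

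Between the untreated lines, the receptor chains and STAT3 were lower in Ls174, and both ligands were low in both lines. IL6R had 170 counts in HepG2 and 2 in Ls174, a ratio of 99.8 (27.2 to 831) and a log2 difference, Ls174 minus HepG2, of -6.54 ± 0.73. IL6ST was lower in Ls174 by a log2 difference of -2.29 ± 0.54, and each of its Ls174 controls lay below each HepG2 control. STAT3 was lower there by -2.87 ± 0.51, again without overlap. These 3 of the 6 genes tested were called, all lower in Ls174, where 35.5% of 13040 genes were called in either direction and 19.6% as lower. The differences between the lines were also known when the genes were chosen, and nothing is read from these calls. IL11 differed by -0.51 ± 0.77, LIF by 0.81 ± 0.64 and PIM1 by 0.92 ± 0.38, none of them called. Without Ls174 control library 1, which held most of the Ls174 IL11 counts, IL11 was at -2.22 and was called.

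For the rest of the pathway, a list of 69 further genes in 8 roles was drawn up, also with earlier results of these libraries known, so that its p-values are not independent evidence. In HepG2, 48 of them passed the filter and edgeR called 4, all higher with HME, namely PIM3, SOCS5, BCL6 and MCL1, beside 3.31% of all genes tested called and 2.77% called as higher. DESeq2 called 13, of which 10 were higher and FGG, STAT2 and IL22RA1 lower. By DESeq2, 1033 of all 11343 genes tested were called, 623 of them as higher. The median log2 fold change of the 48 was 0.38, beside -0.042 over all genes tested. In Ls174, 39 passed and edgeR called 0, with 6 at an unadjusted p below 0.05. DESeq2 called 1, CEBPD, beside 434 of all 11319 genes tested. The median was -0.072 beside -0.0029 over all genes. The 14 higher and 6 lower genes that met the looser thresholds in HepG2 stand beside 22.2% of all genes tested in either direction and 11.3% as higher. In Ls174, 2 higher and 3 lower genes met them, beside 12% of all genes tested in either direction.

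PIM3, the closest relative of PIM1 in the list, was at 88.7, 53.9 and 116 CPM in untreated and at 861, 742 and 884 CPM in treated HepG2 cells. Its log2 fold change was 3.29 ± 0.37 (edgeR adjusted p = 0.0022). In Ls174 it went from 154, 189 and 204 to 295, 236 and 258 CPM, a log2 fold change of 0.52 ± 0.20 that was not called (adjusted p = 0.31) although the groups did not overlap. The difference between the lines, -2.74 ± 0.41, was called for PIM3 (adjusted p = 0.0079) and for no other gene of the 50 in the list that were tested, and the call was lost without Ls174 HME library 2 or 3 (adjusted p = 0.052 and 0.051).

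Of the other STAT3 targets, BCL6, a transcriptional repressor, was at 38.5, 27.9 and 34.9 CPM in untreated and at 118, 81.5 and 102 CPM in treated HepG2 cells (log2 fold change 1.58 ± 0.31, adjusted p = 0.024). MCL1, an inhibitor of apoptosis, went from 131, 91.0 and 114 to 353, 320 and 328 CPM (1.59 ± 0.30, adjusted p = 0.020). With PIM3 these made 3 of 9 targets tested by edgeR, where DESeq2 called 6 (BCL3, PIM2 and CEBPB in addition), and TIMP1 was not called (0.75 ± 0.34). Without control 2, edgeR called BCL3 and CEBPB as well, both higher. Among the other inhibitors, SOCS5 was at 15.0, 11.1 and 17.3 CPM in untreated and at 45.2, 35.8 and 40.6 CPM in treated HepG2 cells (1.49 ± 0.31, adjusted p = 0.034). It was the 1 call of edgeR among 12 tested, and DESeq2 called SH2B3 as well. The more abundant phosphatases PTPN1 (-0.050 ± 0.49, or -0.43 without control 2), PTPN11 (0.41 ± 0.42, or 0.085 without control 2) and PTPN2 (0.80 ± 0.36), which remove phosphate from the kinases or their receptors, were not called. The calls of SOCS5, BCL6 and MCL1 each held when control library 2 was left out and were lost when any of the other 5 HepG2 libraries was.

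**Figure D3:**
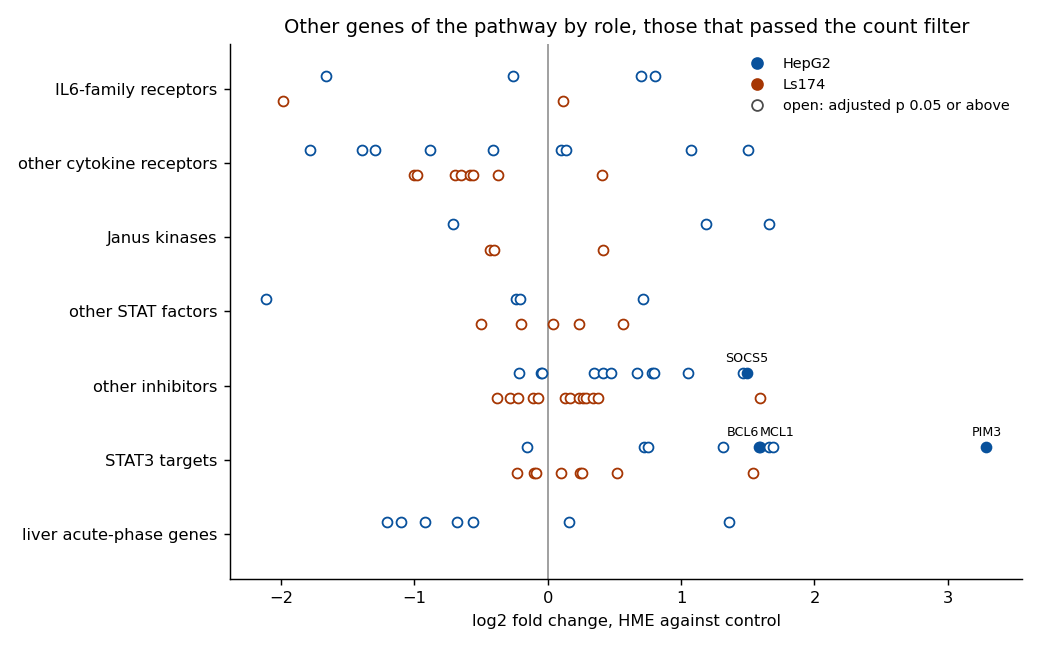
Log2 fold change of HME against control for the other pathway genes that passed the count filter, by role, in HepG2 (blue) and Ls174 (brown). Each point is a gene and filled points are called at an adjusted p below 0.05: PIM3, BCL6, MCL1 and SOCS5 in HepG2 and none in Ls174. The ligands have no row because none of the 7 passed the filter.

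None of the 7 further ligands passed the filter in either line, and IL6 had no count in any of the 12 libraries. CLCF1, a cytokine of the same family, had 3 counts in untreated and 37 in treated HepG2 cells, at 0.802, 0 and 0 against 2.75, 4.92 and 9.55 CPM, a ratio of 13.7 (4.34 to 69.4). In Ls174 CLCF1 had 4 and 10 counts, a ratio of 2.66 (0.768 to 11.6). CTF1 did not exceed 3.72 CPM and CNTF did not exceed 1.57 CPM in any library.

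Of the private receptor chains, LIFR and OSMR were measured in HepG2 and hardly in Ls174, while IL11RA was found in both. LIFR, the receptor of LIF, was at 19.5, 9.29 and 13.3 CPM in untreated and at 26.3, 18.3 and 23.9 CPM in treated HepG2 cells. It had no count in untreated Ls174 cells, which places it at least 47.4-fold higher in untreated HepG2 when 3 counts are allowed over the 3 Ls174 libraries, and its 4 counts in treated Ls174 cells all lay in HME 1. OSMR, the receptor of oncostatin M, was at 23.0, 6.81 and 13.3 CPM in untreated and at 25.6, 25.3 and 25.1 CPM in treated HepG2 cells, and had no count in any Ls174 library (at least 50.9-fold higher in untreated HepG2). IL11RA, the receptor of IL11, was present in both lines, at 10.4, 41.5 and 14.1 CPM in untreated HepG2 and at 25.9, 5.55 and 3.56 CPM in untreated Ls174. After HME it was at 9.44, 7.02 and 3.58 CPM in HepG2 and at 2.17, 1.41 and 4.90 CPM in Ls174. Its log2 fold changes of -1.66 ± 0.61 and -1.98 ± 0.85 were not called (adjusted p = 0.16 and 0.36), and the highest value of each line was the control that stood apart, without which they were -0.75 and -0.64. With no filter beyond 1 count IL11RA was called as lower in both lines. In HepG2 the log2 fold change of OSMR was 0.81 and was 0.53 without control library 2. By edgeR no gene of this role was called in either line, with 1 in each at an unadjusted p below 0.05 and none called by DESeq2. LIFR and OSMR were called as lower in untreated Ls174 (adjusted p = 9.1e-05 and 5.7e-05).

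**Figure D4:**
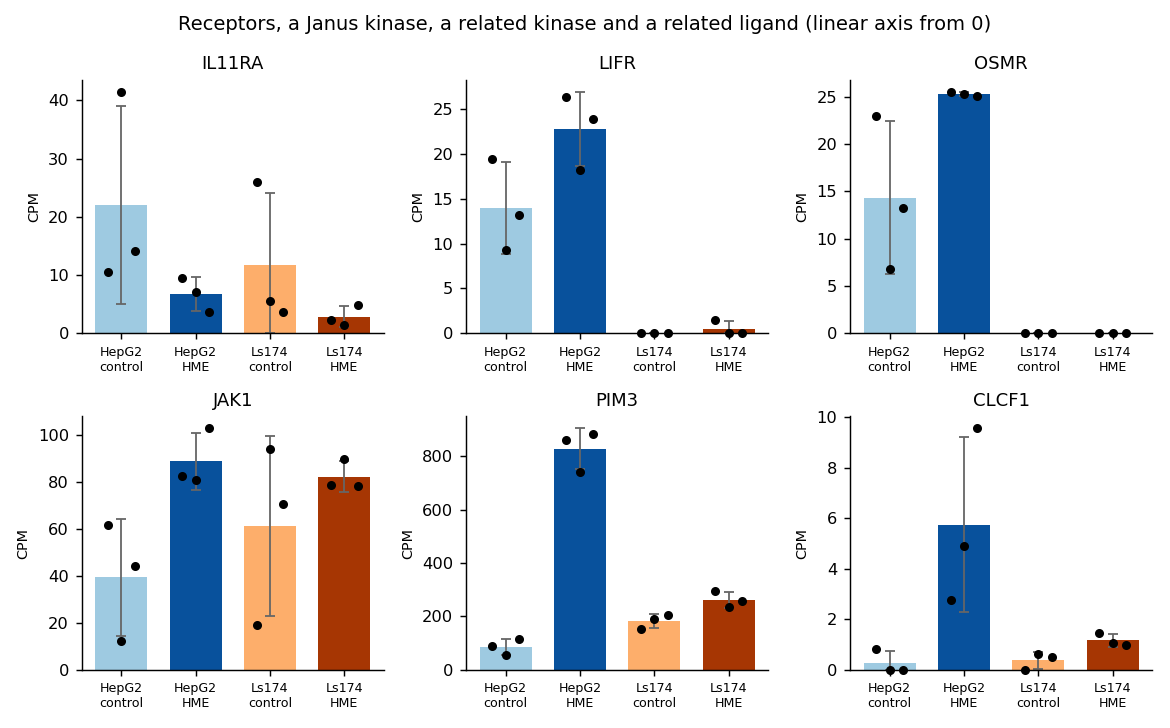
Level (CPM, linear axes from 0) of 3 receptor chains, the kinase JAK1, PIM3 and the ligand CLCF1 in the 12 libraries. Points are libraries, bars the mean and error lines 1 SD (n = 3 libraries a group), and LIFR and OSMR are at or near 0 in Ls174 while IL11RA and JAK1 are present in both lines.

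By edgeR no Janus kinase and no other STAT factor reported here was called in either line. In HepG2, 2 Janus kinases and 1 STAT factor had an unadjusted p below 0.05, in Ls174 none had, and DESeq2 called STAT2 in HepG2 and none in Ls174. JAK1, which works with gp130, was at 61.5, 12.4 and 44.2 CPM in untreated and at 82.6, 80.8 and 103 CPM in treated HepG2 cells (log2 fold change 1.19 ± 0.47, adjusted p = 0.18), with its lowest value in control 2 and a log2 fold change of 0.81 without that library. JAK2 had a log2 fold change of 1.66 ± 0.47 (adjusted p = 0.087) and TYK2 of -0.71 ± 0.35 in HepG2, or -0.45 without control 2. Of the STAT factors tested there, STAT2, which acts in interferon signalling, had the lowest value, from 24.3, 66.3 and 28.1 to 5.51, 12.3 and 9.55 CPM (-2.11 ± 0.51, adjusted p = 0.058), and without control 2, the highest, it was -1.44 and was called. STAT6 (-0.24 ± 0.28) had a value nearer 0. The other cytokine receptors, 9 of 13 tested in HepG2, held no call by edgeR, with 2 higher and 3 lower at the looser thresholds, and DESeq2 called IFNGR2 as higher and IL22RA1 as lower. IFNGR2, a chain of the interferon-gamma receptor, was the most abundant of them, from 79.4, 26.0 and 72.3 to 164, 166 and 165 CPM (1.50 ± 0.40, adjusted p = 0.071), and it was called without control 2, the lowest (1.19).

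Of the 9 genes listed here as liver acute-phase genes, most are classical readouts of gp130 and STAT3 in hepatocytes. In HepG2, 7 of the 9 were tested and held no edgeR call, with 2 at an unadjusted p below 0.05. DESeq2 called FGG as lower and SERPINA3 as higher. The median log2 fold change of the 7 was -0.68, with 5 of them below 0. That median is the value of HP, which was highest in control 2. HP was at 186, 767 and 217 CPM in untreated and at 212, 279 and 256 CPM in treated HepG2 cells. HAMP was also highest in control 2, at 2.67, 27.9 and 6.02 CPM against 7.86, 3.16 and 4.18 CPM. The median and the count below 0 therefore lean on that library, and their values without it are not reported here. The fibrinogen chains FGA (-0.56 ± 0.30) and FGG (-1.10 ± 0.36) and the protease inhibitor A2M (-0.92 ± 0.42, or -0.39 without control 2) were on the lower side. The fibrinogen chain FGB lay slightly above 0 and was not called. It was at 901, 236 and 784 CPM in untreated and at 699, 692 and 701 CPM in treated HepG2 cells, lowest in control 2. Controls 1 and 3 lay above every treated library, so its place above 0 rested on control 2. SERPINA3 stood further to the higher side, at 1.36 ± 0.35 (edgeR adjusted p = 0.066), and was called without control 2 (1.19). The summed liver markers moved beside this list, from 11612 to 15646 CPM in untreated to 8827 to 10009 CPM in treated HepG2 cells, and their part in it was not tested. All 5 of these markers had a log2 fold change below 0, but edgeR called none of them (lowest adjusted p = 0.16). CRP had no count in any library, and no acute-phase gene passed the filter in Ls174.

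Over the 12 libraries, the genes whose log2 level followed IL11 most closely were FLCN (Pearson r = 0.98), DUSP1 (r = 0.98) and GNA13 (r = 0.98), among 11046 genes with a mean of at least 5 CPM. Among those closest to LIF were CNNM4 (r = 0.96) and RND1 (r = 0.95). DUSP1, a phosphatase of MAP kinases, was at 4.82 to 6.81 CPM in untreated and 64.3 to 85.3 CPM in treated HepG2 cells and at most 3.91 CPM in Ls174. IL11 and LIF had r = 0.86 with each other, PIM1 ranked 203 for IL11 (r = 0.83) and 38 for LIF (r = 0.89), and STAT3 ranked 1957 and 3555. The 12 points fall in 4 groups and share their scaling, so these values mostly describe the shared difference of treated HepG2 cells from the rest. By rank correlation none of these 5 genes stayed among the closest 3, and YPEL2 and ELF1 led instead. By it IL11 and LIF were at 0.36 with each other (IL11 ranked 2085 for LIF), and PIM1 was at 0.41 for IL11 (rank 3176) and 0.70 for LIF (rank 217).

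**Figure D5:**
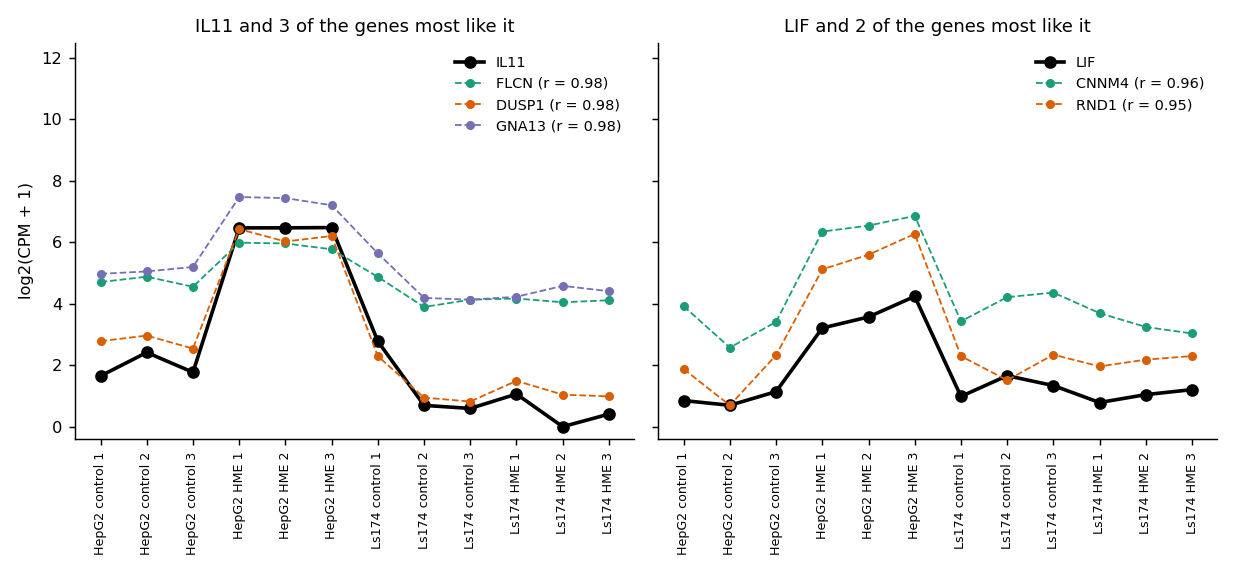
Level, as log2(CPM + 1), of IL11 (left) and LIF (right) in black and of genes with a high Pearson correlation to each (3 for IL11 and 2 for LIF), over the 12 libraries. All 7 lines reach their highest values in the 3 treated HepG2 libraries.

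Markers of other cell types were counted beside these results. The 7 mesenchymal markers summed to 955 CPM in HepG2 HME library 2, nearly all from COL1A1 (548 CPM) and COL1A2 (405 CPM), and to 4.72 and 16.7 CPM in the other treated HepG2 libraries and 3.74 to 10.8 CPM in the controls, with DCN at 0 in all 6. IL11 was at 87.8 CPM in that library and at 87.7 and 88.4 CPM in the others, and its log2 fold change without it was 4.97. LIF and PIM1 without it were at 3.83 and 4.05. The 5 blood markers summed to at most 21.7 CPM, nearly all from CD68 and CD14, with PTPRC at 0 in every library. The 3 endothelial markers in the files summed to at most 4.33 CPM.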

How the data were processed

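RNA-seq libraries made with a 3′ mRNA kit and sequenced on an Ion Torrent instrument were measured in 12 samples. Per the study's methods and the submitters' processing notes, reads were checked with FASTQC, aligned with HISAT2 to hg19 (GRCh37) and counted with metaseqR2; the notes also name Bowtie2 and Trimmomatic without a role, and versions and the strand setting are not given in the sources used here. The deposited values are raw counts per 3′ region, and they were summed here per gene over all its regions. Genes with low counts were removed with filterByExpr (minimum count 10), and edgeR 4.0.16 quasi-likelihood tests with TMM scaling were run in R 4.3.3 within each line (6 libraries) and over all 12 libraries for the difference between lines. Benjamini-Hochberg adjustment covered all genes tested and the threshold was 0.05. DESeq2 1.42.0 was an alternative. The CPM values use TMM over 12 libraries. Count ratios carry exact conditional 95% intervals, which cover counting error only, and a count of 0 was given a limit of 3 counts. Each library held 1790841 to 3656662 counts. The fits were also run on simulated data, where the fit for the difference between lines missed most of the changed genes. A line difference that was not called is therefore not shown to be absent. Log2 CPM for the correlations had a prior count of 2.

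The 9 genes and all gene lists were chosen with earlier results of these data known. The genes named are all 9 with their value in every library, every other pathway gene with an adjusted p below 0.05 in either line, up to 3 of the most abundant genes in each role, and the genes most like IL11 and LIF. Results for some genes that this rule would name are not reported here. LIFR, CEBPD, SERPINA3, FGB, HP, HAMP, IL13RA1, IL6 and CRP were named after their values were seen. Alternatives changed the scaling, the filter, the tool, the libraries in the fit, the call thresholds and the replicate block, and left out each library in turn.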

Additional observations from a re-analysis of the deposited data

Results flagged for a closer look

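The response to HME of 4 genes differed between the lines by the fit over all 12 libraries. For IL11, LIF and PIM1 the Ls174 log2 fold change minus that of HepG2 was -6.92, -4.31 and -3.59, values that belong to the contrasts these genes were chosen on and are a description. For PIM3, which was in a wider pathway list also drawn up with earlier results known, so that its p is not independent evidence, it was -2.74 (edgeR adjusted p = 0.0079), with all 3 treated HepG2 libraries at 742 CPM or more and all 3 treated Ls174 libraries at 295 CPM or less.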

How the results depend on the processing

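For the 9 genes and PIM3, SOCS5, BCL6 and MCL1, no called value changed direction under the alternatives run. Of the results that were not called, STAT3 in HepG2, PIM1 and BCL6 in Ls174, IL6R for the difference between lines and IL11 between the untreated lines changed sign under at least 1 of them. In HepG2, 3 of the 9 genes were called, and 1 (PIM1) when only genes with at least 10 counts in every library were kept, since IL11 and LIF were then not tested. The same filter gave 1 in place of 3 for the difference between lines, 1 in place of 3 between the untreated lines and 6 in place of 20 for the pathway genes between the untreated lines. Over all genes between the untreated lines, 1888 of 7080 were called under this filter in place of 4631 of 13040. For the difference between lines it was 46 of 7080 in place of 84 of 13040. For the other pathway genes in HepG2, 4 were called, against 15 with no filter beyond 1 count, 13 with DESeq2, 9 in 1 fit of all 12 libraries and 20 at the study's thresholds, and between 1 and 9 when a library was left out, the highest without control 2. Over all genes, 375 of 11343 were called, against 1407 of 24458 with no filter, 1033 of 11343 with DESeq2 and 807 of 13040 in 1 fit. Without control 2, 921 of 11899 were called, and 2517 of 11343 passed the study's thresholds with all 6 libraries. In Ls174 the counts were 0 in the main test against 3, 1 (DESeq2) and 5 (the study's thresholds), and between 0 and 4 when a library was left out, the highest without control 1, which also made IL6ST the 1 call among the 9 genes (range 0 to 1). The 4 pathway genes called without control 1 were CEBPB, CEBPD and SH2B3 as higher and IL13RA1 as lower, beside 979 of all 11673 genes. Over all genes, 604 of 22568 were called with no filter and 434 of 11319 with DESeq2. For the difference between lines, the pathway count of 1 was 2 with no filter and 4 with DESeq2, and 0 to 2 when a library was left out, while the 3 calls among the 9 genes were between 1 and 3, the lowest without Ls174 HME 2 or 3. Over all genes, this difference was called for 367 of 27326 with no filter and 380 of 13040 with DESeq2. With no filter SOCS3 was also called in HepG2 (log2 fold change 4.37). Library size scaling moved the median log2 fold change of all HepG2 genes from -0.042 to -0.20, and IL11, LIF and PIM1 remained called in HepG2. With it the call of LIF for the difference between lines was lost (-4.22), leaving 2 of the 9 genes in place of 3. The cause of the other differences was not tested.

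Replicate numbers are shared between groups, but same-numbered control and HME libraries did not deviate together (correlations of -0.15, 0.073 and -0.12 in HepG2 and -0.039, 0.0055 and -0.060 in Ls174). These values are deviations from the mean of 3 libraries a group, so they cannot exclude a pairing, and whether the numbers pair the libraries is unknown. With the replicate number as a block, 349 genes were called in HepG2 in place of 375, 0 in Ls174 in place of 134, 37 for the difference between lines in place of 84 and 4152 between the untreated lines in place of 4631. With the block the calls of SOCS5 and MCL1 in HepG2 (log2 fold changes 1.51 and 1.60, adjusted p = 0.065 and 0.053) and of LIF for the difference between lines (-4.23) were lost, and PIM1 was called between the untreated lines (0.96), making 4 of the 9 genes in place of 3. The planned test of 3′ region shares was not run, because no gene of the 9 had 2 regions with at least 10% of its counts each. Depth limits SOCS2, SOCS3 and CISH, which had at most 25 counts over any group. The SOCS3 ratio in HepG2 was 16.7 without HME 2, in place of 27.8, and that of CLCF1 14.3 in place of 13.7, both chosen after seeing the data.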
